A study of Drosophila melanogaster with 36 samples.

Results

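The Imd pathway genes described here are PGRP-LE, PGRP-LF, imd, key, Dredd, Rel, pirk and dnr1. They are 8 of a list of 9 genes of the pathway, and they were taken from 11981 genes measured in Kc167 cells. A gene was taken where a probe set carried its symbol alone, with 1 probe set per gene. Each of the 8 genes had a single such probe set, and the ninth listed gene, PGRP-LC, was not analysed here.

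Kc167 is a line of Drosophila melanogaster embryonic origin, and its RNA was hybridised to Affymetrix Drosophila Genome 2.0 arrays. All cultures grew in Schneider medium with serum and antibiotics and had their medium replaced 1 day after plating. The MMS cultures were given methyl methanesulfonate, an agent that methylates DNA and other molecules, at 40 µg/mL in the fresh medium for 1, 8, 24 or 72 h. The control cultures were given the fresh medium alone and were taken at 0, 1, 8, 24 or 72 h, so that 0 h had no MMS culture of its own. Each of these 9 groups had 4 arrays, from cultures that the submitters describe as grown independently, and no bacteria or peptidoglycan were added in any group. One cell line was used, so the spread between arrays is that between cultures of this line.

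The Imd pathway is the arm of fly immunity that responds to the peptidoglycan of Gram-negative bacteria. Receptors of the PGRP family bind peptidoglycan and recruit the adaptor imd. The caspase Dredd and an IKK complex that contains key then act on the NF-kB factor Rel, which is cleaved, enters the nucleus and turns on antimicrobial peptide genes. The pathway is held in check by inhibitors, among them PGRP-LF and pirk at the receptor and dnr1 at Dredd, and blood cells such as hemocytes are among the tissues that use it.

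The Kc167 cells were checked against markers of hemocytes, the cell type they resemble, and of other cell types. Of 21 measured hemocyte markers, 18 lay above 4.55, the median log2 value of the arrays, in control cultures at 0 h, and of 5 muscle markers 0 did. Of 8 neuron markers 4 lay above that value, of 9 fat body and gut markers 5, and of 9 germline markers 5. By a related measure, 7272 of the 11981 genes had a mean over all 36 arrays above the median of the probe set means. The neuron, fat body and gut, and germline counts did not exceed that share. Arrays of 1 group correlated at 0.9839 to 0.9981 over genes. All 8 arrays of the 8 h groups stood apart from the other 28 in 2 quality readings. The probe set for 18S ribosomal RNA gave 10.56 to 11.33, against 3.44 to 6.65 elsewhere, and the mean gap between the 3′ and 5′ probe sets of the control transcripts was 1.42 to 1.67, against 0.50 to 0.72. At 8 h that gap was 1.58 to 1.67 in MMS arrays and 1.42 to 1.66 in control arrays, a difference of 0.08 (exact two-sided permutation p = 0.143). At 72 h it was 0.69 to 0.72 in MMS arrays and 0.54 to 0.63 in control arrays, which did not overlap (a difference of 0.13, p = 0.0286 in the same exact test, the smallest it can give), and at 1 and 24 h the groups overlapped. The part of this reading in the values at 8 h and in the differences between MMS and control at 72 h was not tested. Between 8 h and the other times, the quality readings and the time after the medium change cannot be told apart.

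Over the whole time course the 8 genes fell into those that varied widely and those that hardly varied. The 9 group means spanned 3.21 log2 units for PGRP-LF, 2.74 for pirk, 1.54 for dnr1, 1.46 for Rel and 0.94 for PGRP-LE. They spanned 0.43 for imd, 0.36 for Dredd and 0.35 for key. The pooled SD of arrays within groups was 0.08 for Dredd, 0.10 for key, 0.13 for PGRP-LE, 0.17 for Rel, 0.18 for imd, 0.20 for pirk, 0.21 for PGRP-LF and 0.32 for dnr1, so dnr1 was the least precise of the 8. All 8 genes lay above 4.55 in every group mean. The lowest group mean of dnr1 lay 0.11 above it, that of pirk 0.58 and that of PGRP-LF 0.69.

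**Figure D1:**
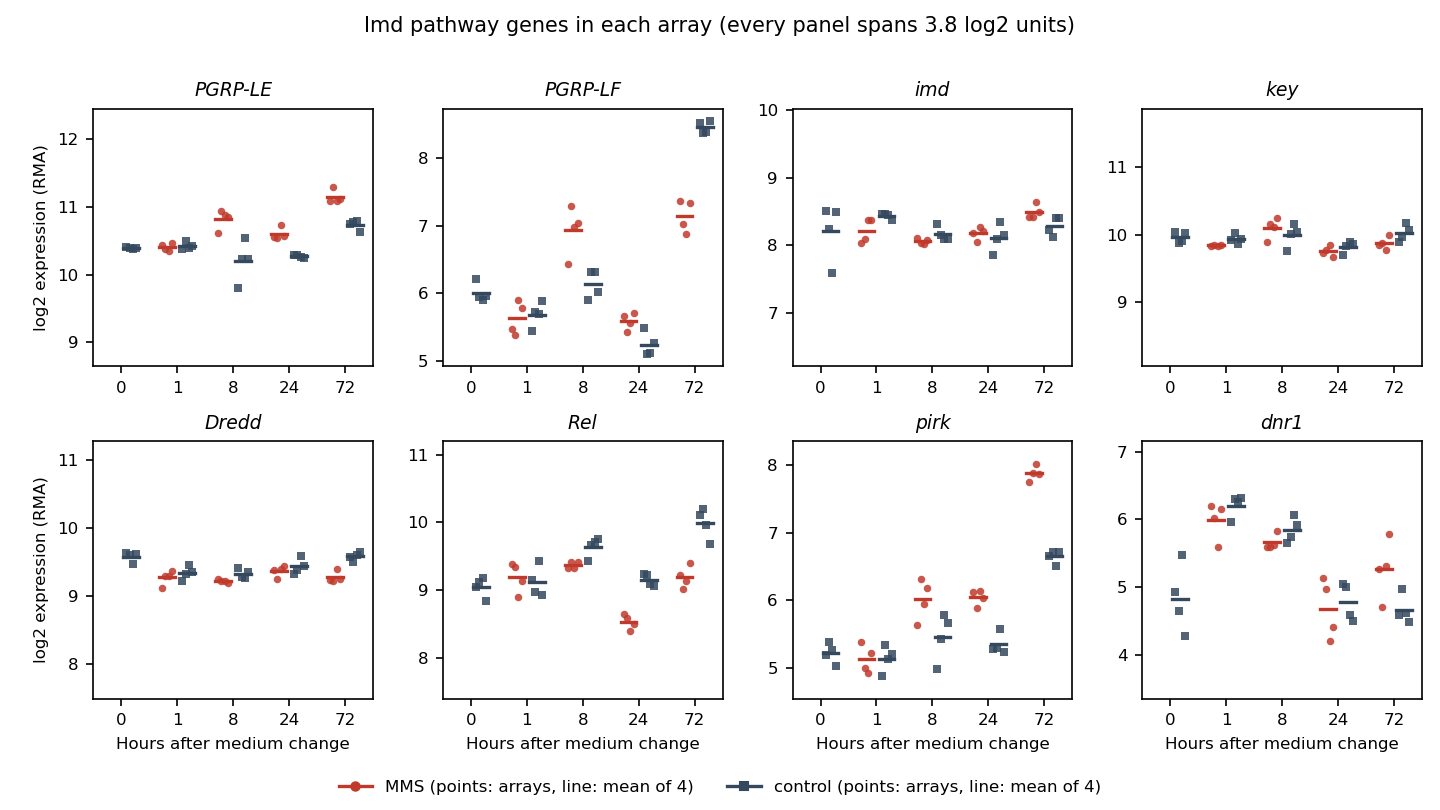
log2 expression of each of the 8 genes (vertical axis, a range of 3.8 log2 units in every panel) in each array against the hours after the medium change (horizontal axis). Red circles are MMS arrays, dark squares are control arrays, and the short lines are means of 4 arrays. At 72 h the MMS arrays of PGRP-LF and Rel lie below the control arrays and those of pirk lie above them, while imd and key hardly move.

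MMS was set against control at each time, which asks what changed with the alkylating agent beside the changes of the culture itself. Changes are given on the log2 scale as MMS minus control with the SE of limma's fit over all 36 arrays, and p-values are from limma's moderated test, adjusted by Benjamini-Hochberg over the 11981 genes. After 1 h of MMS none of the 8 genes passed an adjusted p of 0.05, and 0 of the 11981 genes did (684 genes, 5.71% of them, had an unadjusted p under 0.05, and 0 of the 8 did). After 8 h, 3 of the 8 genes were higher and 0 lower, where 20.3% of all genes were called 8.85% higher and 11.5% lower. After 24 h, 2 were higher and 1 lower, where 20.2% were called, 10.2% higher and 10% lower. After 72 h, 3 were higher and 3 lower, where 29.5% were called, 17% higher and 12.5% lower. Over all genes, 2039 were higher and 1492 lower at 72 h, a split that became 2228 and 1023 once array medians were set equal, while the calls of the 8 genes stayed as they were. A change of at least 2-fold was reached only at 72 h, by pirk, which was higher, and PGRP-LF, which was lower, where 4.25% of all genes passed both criteria. The arrays of MMS and control did not overlap for 3.66% of all genes at 1 h, 24.5% at 8 h, 24.2% at 24 h and 28.2% at 72 h. These shares are the background to each statement below on overlap of MMS and control at the same time. For overlap between arrays of different times no such share is given here.

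**Figure D2:**
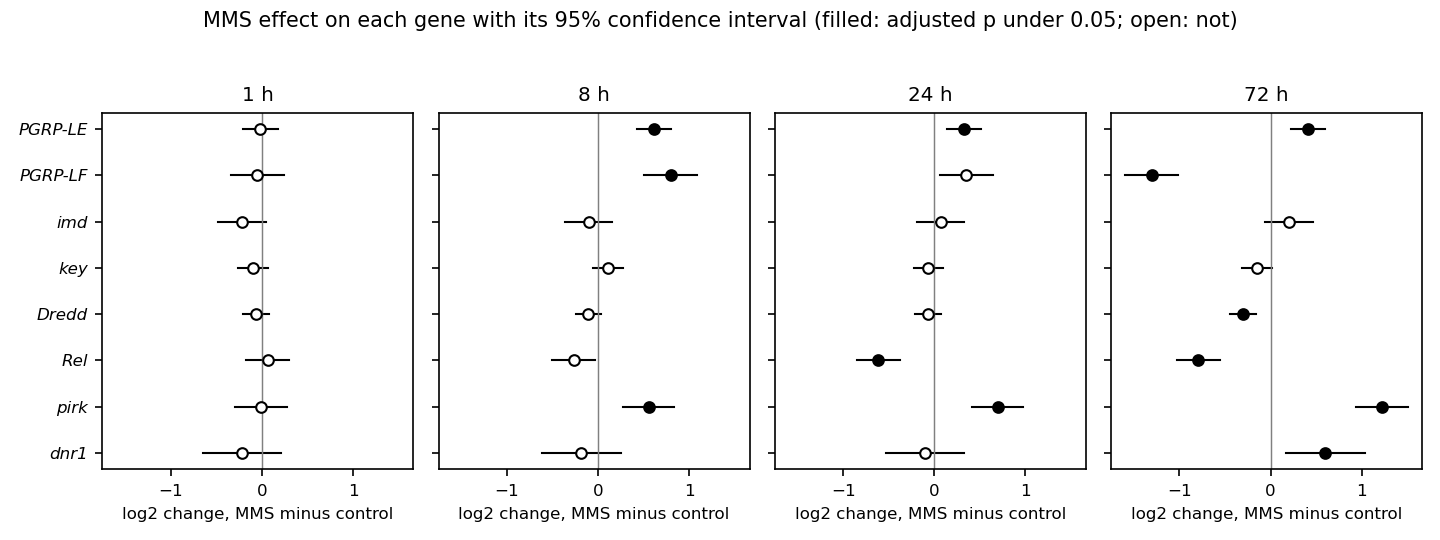
Change of each of the 8 genes on the log2 scale, MMS minus control (horizontal axis), after 1, 8, 24 and 72 h. Points are estimates from limma with their 95% confidence intervals, filled where the adjusted p is under 0.05. PGRP-LE and pirk lie to the right of 0 at 8, 24 and 72 h, Rel lies to the left at 24 and 72 h, and PGRP-LF lies to the right at 8 h and to the left at 72 h.

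PGRP-LE, a receptor that senses peptidoglycan inside the cell, was higher with MMS from 8 h on. After 1 h its log2 values were 10.43, 10.38, 10.35 and 10.46 in MMS arrays, against 10.37, 10.49, 10.40 and 10.43 in control arrays. After 8 h they were 10.61, 10.94, 10.88 and 10.85 in MMS arrays, against 9.81, 10.23, 10.55 and 10.23 in control arrays. The groups overlapped at 1 h and did not at 8 h, where replicate 1 was the lowest array of both groups. The difference at 8 h was 0.62 ± 0.09 (adjusted p = 8.07e-06), a 1.53-fold higher value. Its smallest estimate with 1 array of either group left out, or under another processing setting, was 0.48.

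The difference in PGRP-LE held at the later times. After 24 h the MMS arrays read 10.56, 10.54, 10.73 and 10.57, against 10.28, 10.30, 10.26 and 10.24 in control arrays. After 72 h they read 11.09, 11.29, 11.09 and 11.12, against 10.74, 10.78, 10.79 and 10.62 in control arrays. The groups were apart at both times. PGRP-LE was higher by 0.33 ± 0.09 at 24 h (adjusted p = 0.00819) and by 0.41 ± 0.09 at 72 h (adjusted p = 0.000761). The effect at 24 h minus that at 8 h was -0.29 ± 0.13 (adjusted p = 0.198), and that at 72 h minus that at 24 h was 0.08 ± 0.13 (adjusted p = 0.765), so neither difference between times passed. Between 8 and 24 h 0 of the 8 genes passed this test, where 7.98% of all genes did. In limma's unadjusted test 3 of the 8, PGRP-LF, PGRP-LE and Rel, had p under 0.05, where 20.7% of all genes did. In control cultures PGRP-LE was 0.34 ± 0.09 higher at 72 h than at 0 h (adjusted p = 0.00334), and its highest group mean, 11.15 ± 0.10 (SD, n = 4), was that of MMS at 72 h, which lay above every other group without overlap with the next.

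PGRP-LF is a membrane protein of the same family that cannot bind peptidoglycan and inhibits signalling through PGRP-LC. With MMS it lay above control at 8 h and below control at 72 h. After 1 h it read 5.47, 5.38, 5.91 and 5.78 in MMS arrays, against 5.45, 5.72, 5.69 and 5.89 in control arrays. After 8 h it read 6.43, 7.29, 6.98 and 7.04 in MMS arrays, against 5.90, 6.31, 6.31 and 6.02 in control arrays. The groups overlapped at 1 h and were apart at 8 h, with replicate 1 again the lowest in both. PGRP-LF was 0.80 ± 0.14 higher with MMS at 8 h (adjusted p = 9.65e-05), which is 1.74-fold.

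After 24 h PGRP-LF read 5.67, 5.43, 5.57 and 5.71 in MMS arrays, against 5.49, 5.11, 5.11 and 5.27 in control arrays. The groups overlapped in 1 control array, and the difference of 0.35 ± 0.14 did not pass (adjusted p = 0.0867). This call rested on the setting: the adjusted p was 0.038 with array weights, 0.0471 without the 8 h arrays, 0.0286 with only the groups of this comparison and 0.0459 without replicate 1 of control at 24 h (a difference of 0.43), within a range of 0.0286 to 0.208 over all alternatives. After 72 h PGRP-LF read 7.37, 7.03, 6.87 and 7.33 in MMS arrays, against 8.51, 8.37, 8.39 and 8.54 in control arrays. The groups lay far apart, with every MMS array below every control array. PGRP-LF was lower, with a difference of -1.30 ± 0.14 (adjusted p = 6.76e-09), a 2.47-fold lower value in MMS cultures. The effect at 72 h minus that at 24 h was -1.65 ± 0.20 (adjusted p = 2.06e-07), and PGRP-LF was the only 1 of the 8 genes to pass this test, where 13.7% of all genes did and 4.53% moved downward.

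The lower PGRP-LF at 72 h stood against a control culture in which the gene had risen. In control cultures PGRP-LF read 6.21, 5.94, 5.90 and 5.97 at 0 h. It was below that at 24 h (-0.76 ± 0.14, adjusted p = 0.00022) and 2.45 ± 0.14 above it at 72 h (adjusted p = 1.2e-15), which is 5.46-fold. All 4 control arrays at 72 h lay above every array of the other 8 groups. MMS cultures at 72 h were compared with control at 0 h too, a comparison added after the data were seen, and PGRP-LF was 1.15 ± 0.14 higher there (adjusted p = 3.01e-08). In that comparison 46.8% of all genes were called, 22.2% higher. So the gene was above its starting level in both cultures at 72 h, less so with MMS.

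The gene table places PGRP-LA, PGRP-LC and PGRP-LF next to one another in the genome. PGRP-LA, another gene of the family, had a probe set of its own. It averaged 4.91 with MMS and 4.17 in control at 72 h and was higher by 0.74 ± 0.10 (adjusted p = 2.17e-07). At that time the 2 measured genes of this cluster thus lay on opposite sides of control with MMS. The mean of PGRP-LA in control at 0 h was 4.15, so with MMS at 72 h both genes averaged above it. PGRP-LA lay below the median of the arrays in control cultures at every time, with group means of 4.07 to 4.26.

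The adaptor imd, which carries a death domain and links the receptors to the caspase and kinase arms, did not pass at any time. At 1 h it read 8.03, 8.09, 8.37 and 8.38 in MMS arrays, against 8.46, 8.46, 8.45 and 8.38 in control arrays (-0.22 ± 0.13, adjusted p = 0.836). At 72 h it read 8.42, 8.42, 8.64 and 8.49 in MMS arrays, against 8.23, 8.12, 8.40 and 8.41 in control arrays (0.20 ± 0.13, adjusted p = 0.242). The arrays of the groups did not overlap at either time, but their nearest arrays almost touched, and its differences at 8 and 24 h were -0.10 ± 0.13 and 0.07 ± 0.13. The 95% interval of the difference at 72 h ran from -0.06 to 0.46. Replicate 3 of control at 0 h, at 7.59, was far below the other arrays of that group, at 8.24 to 8.50. Without that array, imd in control at 24 h was below 0 h and passed (-0.30, adjusted p = 0.0354), whereas with it the difference was -0.10 ± 0.13 (adjusted p = 0.688, range 0.0354 to 0.997 over alternatives).

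The gene key, for the regulatory subunit of the IKK complex, did not pass at any time either. Its group means lay between 9.76 and 10.10. Its differences were -0.09 ± 0.08 at 1 h, 0.11 ± 0.08 at 8 h, -0.06 ± 0.08 at 24 h and -0.15 ± 0.08 at 72 h, with adjusted p-values of 0.856, 0.384, 0.682 and 0.166. At 1 h every MMS array lay below every control array, though the nearest arrays, at 9.85 and 9.86, almost touched. At 72 h the interval ran from -0.31 to 0.01, so a fall of key by more than 0.31 lies outside it.

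Dredd, the caspase that cleaves imd and Rel, was lower with MMS at 72 h. It then read 9.23, 9.22, 9.40 and 9.25 in MMS arrays, against 9.58, 9.49, 9.61 and 9.64 in control arrays. The groups did not overlap, and Dredd was lower, with a difference of -0.31 ± 0.07 (adjusted p = 0.00086), which is 1.24-fold. At 1, 8 and 24 h its differences were -0.06 ± 0.07, -0.11 ± 0.07 and -0.07 ± 0.07 and did not pass. At 8 h every MMS array lay below every control array, though the nearest arrays, at 9.25 and 9.26, almost touched. In control cultures Dredd was lower at 8 h, the time whose arrays stood apart in quality, than at 0 h (-0.25 ± 0.07, adjusted p = 0.00442). At 72 h Dredd in control did not differ from 0 h beyond the spread (0.00 ± 0.07, adjusted p = 0.993). With only the groups of the comparison in the fit, the call at 8 h was lost (adjusted p = 0.0591, within a range of 0.0023 to 0.0591 over alternatives).

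Rel, the NF-kB factor that the pathway activates, was lower with MMS at 24 and 72 h. At 8 h it read 9.33, 9.41, 9.33 and 9.42 in MMS arrays, against 9.43, 9.67, 9.71 and 9.75 in control arrays. At 24 h it read 8.64, 8.59, 8.40 and 8.50 in MMS arrays, against 9.24, 9.22, 9.09 and 9.06 in control arrays. At 72 h it read 9.23, 9.02, 9.13 and 9.40 in MMS arrays, against 10.12, 10.20, 9.96 and 9.68 in control arrays. Every MMS array lay below every control array at each of these 3 times.

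The difference in Rel was -0.27 ± 0.12 at 8 h and did not pass (adjusted p = 0.108). It passed at 8 h with array weights (adjusted p = 0.0175) and with only the 8 h groups in the fit (adjusted p = 0.0464), within a range of 0.0175 to 0.231 over alternatives. Rel was lower, with a difference of -0.62 ± 0.12 at 24 h (adjusted p = 9.51e-05) and of -0.79 ± 0.12 at 72 h (adjusted p = 1.41e-06), which are 1.53-fold and 1.73-fold lower values. The effect at 72 h minus that at 24 h was -0.18 ± 0.16 (adjusted p = 0.562). In control cultures Rel was 0.59 ± 0.12 above its 0 h value at 8 h (adjusted p = 0.000116), the time whose arrays stood apart in quality. At 72 h Rel was 0.94 ± 0.12 above that value (adjusted p = 3.02e-08). MMS cultures at 72 h did not differ from control at 0 h beyond the spread (0.15 ± 0.12, adjusted p = 0.303), with an interval of -0.09 to 0.38. At 72 h Rel thus stood near its 0 h level in MMS cultures and above it in control cultures.

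The inhibitor pirk, which binds imd and PGRP-LC and whose gene is itself a known target of Rel, was higher with MMS from 8 h on. At 8 h it read 5.64, 6.32, 5.94 and 6.18 in MMS arrays, against 4.99, 5.43, 5.78 and 5.67 in control arrays. At 24 h it read 6.12, 5.89, 6.14 and 6.04 in MMS arrays, against 5.29, 5.29, 5.57 and 5.24 in control arrays. At 72 h it read 7.74, 7.88, 8.01 and 7.86 in MMS arrays, against 6.66, 6.72, 6.52 and 6.71 in control arrays. The groups overlapped at 8 h and were apart at 24 and 72 h, and at 8 h replicate 1 was the lowest array in both.

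The difference in pirk was 0.55 ± 0.14 at 8 h (adjusted p = 0.00347), 0.70 ± 0.14 at 24 h (adjusted p = 0.000212) and 1.22 ± 0.14 at 72 h (adjusted p = 1.23e-08), the last a 2.34-fold higher value. The effect at 72 h minus that at 24 h was 0.53 ± 0.20 and did not pass (adjusted p = 0.0714). That test passed without the 8 h arrays (adjusted p = 0.0185) and with only the groups of the comparison (adjusted p = 0.00848), within a range of 0.00848 to 0.253 over alternatives. In control cultures pirk was 1.43 ± 0.14 higher at 72 h than at 0 h (adjusted p = 2.06e-10). MMS cultures at 72 h were 2.66 ± 0.14 above control at 0 h (adjusted p = 2.71e-17), which is 6.30-fold. So pirk and Rel lay on opposite sides of control under MMS at 24 and 72 h. In control cultures both were above their 0 h levels at 72 h. At 24 h neither passed against 0 h (pirk 0.13 ± 0.14, adjusted p = 0.611, and Rel 0.10 ± 0.12, adjusted p = 0.63).

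The gene dnr1, for a RING-domain inhibitor of Dredd, had its largest change within the first hour after the medium change, in both cultures. It read 4.92, 4.64, 5.47 and 4.27 in control arrays at 0 h. After 1 h it read 6.19, 6.02, 5.59 and 6.15 in MMS arrays, against 5.95, 6.29, 6.26 and 6.31 in control arrays. All 8 arrays at 1 h lay above all 4 arrays at 0 h. In control cultures dnr1 was 1.38 ± 0.21 higher at 1 h than at 0 h (adjusted p = 0.000471), which is 2.60-fold, and this was the largest rise among the 11981 genes. Only 0.267% of all genes were called in that comparison and 0.025% at 2-fold, and 1 of the 8 genes was among them.

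The MMS arrays at 1 h, set against the same 0 h arrays, gave a rise of 1.16 ± 0.21 for dnr1 (adjusted p = 0.00393), where 0.292% of all genes were called and 0.192% were higher, and dnr1 again ranked first of 11981 by increase. Both comparisons share the 0 h arrays, in which dnr1 spread widely, so they are not independent. With only the groups of the comparison in the fit the adjusted p was 0.105 for control and 0.416 for MMS, while over the other alternatives the call held and the rise stayed between 1.19 and 1.59 for control and between 0.98 and 1.38 for MMS. The difference between MMS and control at 1 h was -0.22 ± 0.21 and did not pass (adjusted p = 0.876), with an interval of -0.65 to 0.21.

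By 8 h dnr1 read 5.59, 5.59, 5.62 and 5.83 in MMS arrays, against 5.65, 5.74, 6.07 and 5.92 in control arrays. The control value at 8 h, the time whose arrays stood apart in quality, was still 1.02 ± 0.21 above that at 0 h (adjusted p = 0.000262). At 24 h dnr1 read 5.13, 4.98, 4.20 and 4.41 in MMS arrays, against 5.04, 4.99, 4.59 and 4.51 in control arrays, and control no longer differed from 0 h beyond the spread (-0.04 ± 0.21, adjusted p = 0.929). At 72 h it read 5.27, 4.71, 5.31 and 5.78 in MMS arrays, against 4.59, 4.97, 4.62 and 4.48 in control arrays. The groups overlapped at each of these 3 times.

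At 72 h dnr1 was 0.60 ± 0.21 higher with MMS (adjusted p = 0.0298), and this was the least firm of the 6 calls at that time. The call was lost after further quantile normalization (adjusted p = 0.0698), without the 8 h arrays (adjusted p = 0.052), and when replicate 1, 3 or 4 of either 72 h group was left out. The largest adjusted p, 0.159, came without replicate 4 of MMS, where the difference was 0.43, and the range over all alternatives was 0.00245 to 0.159.

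In control cultures alone, the changes against 0 h gave the background to these effects. At 1 h 1 of the 8 genes was higher and 0 lower, where 0.2% of all genes were called higher. At 8 h 2 were higher and 1 lower, where 33.2% were called, 16.8% higher and 16.4% lower. In that comparison a change of the culture cannot be told apart from the quality readings, in which all 8 h arrays stood apart. At 24 h 0 were higher and 1 lower, where 15.7% were called and 10.8% were lower. At 72 h 4 were higher and 0 lower, where 36.5% were called and 16.7% were higher. The 4 were PGRP-LF, pirk, Rel and PGRP-LE, and the 2 that reached 2-fold were PGRP-LF and pirk. These comparisons share the 0 h arrays with one another, and each 72 h effect of MMS shares its control arrays with the control change at 72 h.

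The 8 genes did not vary as a block. Across the 36 arrays the highest correlation between any 2 of them was that of PGRP-LE and pirk (Pearson r = 0.87), followed by PGRP-LF and pirk (r = 0.67), PGRP-LF and Rel (r = 0.65) and PGRP-LF and PGRP-LE (r = 0.63). That of pirk and Rel was 0.18, and the lowest was that of Dredd and dnr1 (r = -0.62). These values describe 36 arrays in 9 groups that share time points and treatments, and they carry no test.

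For the 3 genes with the most variable group means, the genes with the most similar pattern over the 36 arrays were looked up among all 11981. For PGRP-LF these were CG8229 (r = 0.90), raw (r = 0.90) and Amt (r = 0.89). For pirk they were Lime (r = 0.96), CG7142 (r = 0.96) and Dh44-R2 (r = 0.95). For dnr1 they were CG7879 (r = 0.94), wde (r = 0.84) and papi (r = 0.83).

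Around the 8 genes, 20 further components and regulators of the pathway were measured. With MMS, 4 were higher and 4 lower at 8 h, 3 higher and 4 lower at 24 h, and 5 higher and 5 lower at 72 h, with 0 at 2-fold. Among all genes 8.85% were higher and 11.5% lower at 8 h, 10.2% and 10% at 24 h, and 17% and 12.5% at 72 h, when 4.25% passed at 2-fold. The median change of the 20 was -0.01 at 8 h, -0.05 at 24 h and 0.03 at 72 h, beside -0.02, -0.02 and -0.05 over all genes. Tab2, whose product joins the TAK1 kinase complex, was lower at 8 h (-0.63 ± 0.13), 24 h (-0.59 ± 0.13) and 72 h (-0.78 ± 0.13). Bap60, of the Brahma chromatin complex, was lower, with a difference of -0.63 ± 0.11 at 8 h, -0.43 ± 0.11 at 24 h and -0.63 ± 0.11 at 72 h, and Charon was lower, with a difference of -0.34 ± 0.09, -0.47 ± 0.09 and -0.48 ± 0.09 at these times. The deubiquitinase gene CYLD was higher by 0.58 ± 0.13, 0.45 ± 0.13 and 0.69 ± 0.13, and IKKbeta, for the catalytic partner of key, was higher by 0.45 ± 0.08 at 72 h (adjusted p = 3.14e-05). POSH was higher by 0.66 ± 0.18 at 8 h, 0.59 ± 0.18 at 24 h and 0.81 ± 0.18 at 72 h (adjusted p = 0.000551). At 8 h ben was higher by 0.61 ± 0.13 and akirin by 0.47 ± 0.15, at 72 h Uev1A was lower, with a difference of -0.43 ± 0.08, and Fadd, the adaptor between imd and Dredd, was higher by 0.49 ± 0.12 at 24 h.

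PGRP-LB, an amidase that degrades peptidoglycan and dampens the pathway, was lower with MMS at 8 and 24 h, and in control cultures it was below its 0 h level at 8, 24 and 72 h. Its group mean was 5.15 with MMS and 5.58 in control at 8 h, 6.24 with MMS and 7.13 in control at 24 h, and 6.53 with MMS and 6.30 in control at 72 h, and it was 7.77 in control at 0 h. It was lower with MMS, with a difference of -0.43 ± 0.16 at 8 h (adjusted p = 0.0461) and of -0.89 ± 0.16 at 24 h (adjusted p = 3.59e-05), and did not pass at 72 h (0.24 ± 0.16, adjusted p = 0.267). In control cultures PGRP-LB was below its 0 h level at 8 h (-2.18 ± 0.16, adjusted p = 3.2e-13), the time whose arrays had the large 3′ to 5′ gap, at 24 h (-0.64 ± 0.16, adjusted p = 0.00362) and at 72 h (-1.47 ± 0.16, adjusted p = 1.44e-09).

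Of a list of 33 antimicrobial peptides and other immune effectors, which also holds targets of the Toll and JAK-STAT pathways, 12 were measured and the rest were not analysed here. Of the 12, 5 lay above the median of the arrays in control cultures at 0 h. By the related measure over all arrays, 7272 of the 11981 genes lay above the median of the probe set means. With MMS 1 was higher at 8 h, where 20.3% of all genes were called, 2 at 24 h, where 20.2% were, and 1 at 72 h, where 29.5% were, and 0 of the 12 were lower at any of these times. Drs, the antifungal peptide drosomycin, averaged 5.03 with MMS and 4.60 in control at 8 h, 4.94 with MMS and 4.54 in control at 24 h, and 5.19 with MMS and 4.68 in control at 72 h. It was higher by 0.42 ± 0.14 (adjusted p = 0.035), 0.40 ± 0.14 (adjusted p = 0.0483) and 0.51 ± 0.14 (adjusted p = 0.00708). The Imd-dependent peptide gene DptB averaged 4.34 with MMS and 4.44 in control at 72 h, below the median of the arrays in both, and did not pass. Tep4, for a thioester-containing protein, was higher by 1.20 ± 0.16 at 24 h (adjusted p = 2.99e-07), and in control cultures it was 2.00 ± 0.16 higher at 72 h than at 0 h (adjusted p = 2.15e-12).

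Of 16 genes of the Toll pathway, the other NF-kB arm of fly immunity, 1 was higher and 2 lower with MMS at 8 h, 2 and 2 at 24 h, and 4 and 2 at 72 h. The shares over all genes were 8.85% higher and 11.5% lower at 8 h, 10.2% and 10% at 24 h, and 17% and 12.5% at 72 h. The receptor gene Tl was lower, with a difference of -1.05 ± 0.23 at 8 h, -0.93 ± 0.23 at 24 h and -0.85 ± 0.23 at 72 h. The ligand gene spz was higher by 1.20 ± 0.17 at 72 h (adjusted p = 1.18e-06), and the inhibitor gene cact by 0.49 ± 0.12 at 24 h and 0.88 ± 0.12 at 72 h. The NF-kB gene dl was higher by 0.63 ± 0.12 at 8 h and 0.55 ± 0.12 at 72 h, whereas Rel was lower at 72 h. The kinase gene pll was lower at 8 h (-0.55 ± 0.11) and Pli, whose product binds that kinase, at 24 h (-0.63 ± 0.15), when SPE, for a protease that processes the ligand, was higher by 0.44 ± 0.11. At 72 h the serpin gene nec was lower (-0.35 ± 0.11) and the adaptor gene tub higher by 0.25 ± 0.09. Of 9 JAK-STAT genes 0 passed at 8 h, where 20.3% of all genes did. At 24 h 1 of them was higher and 0 lower, where 20.2% of all genes were called. At 72 h 2 were higher and 1 lower, where 29.5% were called. Socs44A, of the suppressors of cytokine signalling, was higher by 0.46 ± 0.08 at 24 h and 0.79 ± 0.08 at 72 h. At 72 h et, for an inhibitory receptor, was higher by 0.93 ± 0.11 and the ligand gene upd2 lower, with a difference of -0.33 ± 0.10.

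The Imd pathway also feeds JNK signalling, through the TAK1 complex. The list of 12 JNK signalling genes includes the TNF ligand gene egr and its receptor gene wgn, which act upstream of JNK and are not part of that branch of the Imd pathway. Of these 12 genes 5 were higher and 0 lower at 8 h, 3 and 3 at 24 h, and 4 and 2 at 72 h. Over all genes 8.85% were higher and 11.5% lower at 8 h, 10.2% and 10% at 24 h, and 17% and 12.5% at 72 h. The largest single change among these lists was that of egr, which was higher with MMS by 1.15 ± 0.12 at 8 h, 2.30 ± 0.12 at 24 h and 4.41 ± 0.12 at 72 h (adjusted p = 1.24e-23). The adaptor gene Traf4 was higher by 1.04 ± 0.14, 2.38 ± 0.14 and 0.75 ± 0.14 at the same 3 times, and the kinase gene Mkk4 by 0.66 ± 0.14, 0.69 ± 0.14 and 0.83 ± 0.14. The egr receptor gene wgn was lower, with a difference of -0.78 ± 0.13 at 24 h, and higher by 0.56 ± 0.13 at 72 h. Of the AP-1 genes, Jra was higher by 0.36 ± 0.08 at 8 h and lower at 72 h (-0.59 ± 0.08), and kay was higher by 0.48 ± 0.16 at 8 h. The JNK phosphatase gene puc (-0.64 ± 0.21) and the JNK kinase gene hep (-0.44 ± 0.16) were lower at 24 h, and the kinase gene msn was lower at 72 h (-0.74 ± 0.23).

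**Figure D3:**
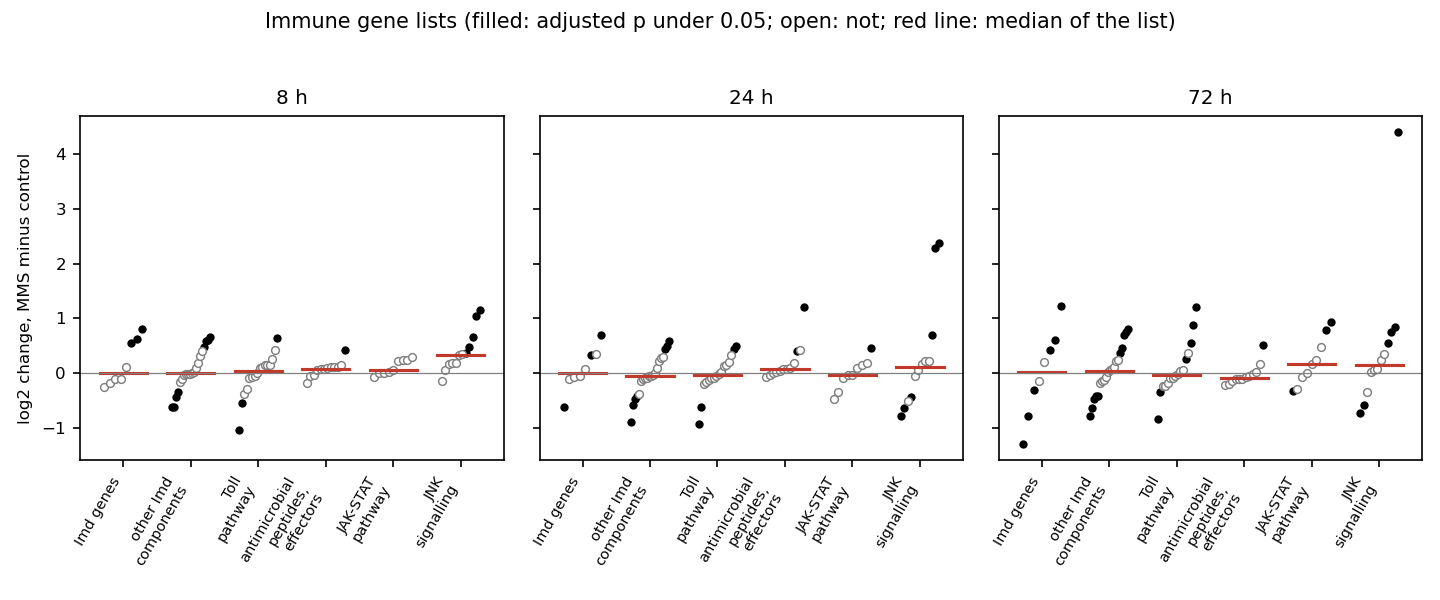
Change of each gene on the log2 scale, MMS minus control (vertical axis), at 8, 24 and 72 h, in the 8 Imd pathway genes, 20 other components, 16 Toll, 12 effector, 9 JAK-STAT and 12 JNK signalling genes. Each point is 1 gene, filled where the adjusted p is under 0.05, and the red line is the median of its list. The list medians lie near 0 except that of the JNK signalling genes at 8 h, and egr is the highest point at 72 h.

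Some markers of other cell types moved over the same comparisons. The summed level of the 8 neuron markers, on the log2 scale, was 8.71 to 9.08 with MMS and 8.37 to 8.57 in control at 8 h, 8.01 to 8.12 with MMS and 7.64 to 7.80 in control at 24 h, and 8.76 to 9.004 with MMS and 7.85 to 7.98 in control at 72 h. MMS arrays lay above control arrays at each of these times. Of the 8, 3 were higher and 5 did not pass at 8 h, 2 and 6 at 24 h, and 3 and 5 at 72 h. Of all genes, 8.85%, 10.2% and 17% were higher at these times. The median change of the 8 was 0.12, 0.14 and 0.0076. At 72 h elav averaged 7.45 with MMS and 5.63 in control, nrv3 6.16 and 4.05, and brp 6.99 and 6.26, so the sum did not stand for the list as a whole. The summed level of the 9 germline markers was 11.18 to 11.21 with MMS and 11.45 to 11.60 in control at 8 h, 10.03 to 10.41 with MMS and 10.77 to 11.01 in control at 24 h, and 9.59 to 10.26 with MMS and 10.26 to 10.54 in control at 72 h. MMS arrays lay below control arrays at 8 and 24 h, and the groups overlapped slightly at 72 h. Of the 9, 3 were lower at 8 h, 5 at 24 h and 1 at 72 h, when 1 was higher. Over all genes 11.5% were lower at 8 h, 10% at 24 h and 12.5% at 72 h, when 17% were higher. The muscle markers, of which 5 were measured, summed to 6.05 to 6.21 with MMS and 5.90 to 6.004 in control at 8 h, and the groups overlapped at 1, 24 and 72 h. At 8 h 1 of the 5 passed, where 20.3% of all genes did. The largest change was that of bt, which averaged 4.06 with MMS and 3.46 in control. In no group did the mean of any of the 5 lie above the median of the arrays. The fat body and gut sums of MMS and control overlapped at 1, 8, 24 and 72 h.

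Hemocyte markers, those of the cell type that Kc167 cells resemble, moved in both directions. Of 21 measured, 1 was higher and 0 lower with MMS at 8 h, where 20.3% of all genes were called. At 24 h 3 were higher and 8 lower, where 20.2% were called, and at 72 h 4 were higher and 8 lower, where 29.5% were. At 2-fold, 3 of the 21 were lower at 24 h, where 198 of the 11981 genes were. At 72 h 1 was higher and 5 lower at 2-fold, where 429 of the 11981 genes were higher and 80 lower. The median change was -0.43 at 24 h and -0.11 at 72 h. At 24 h Ppn was lower (-1.64 ± 0.26), and at 72 h He (-2.001 ± 0.17), Sr-CI (-1.74 ± 0.16) and NimC1 (-1.31 ± 0.15) were lower and Pxn was higher by 1.42 ± 0.18. The summed level was 14.81 to 15.17 with MMS and 14.68 to 14.76 in control at 1 h, 14.68 to 14.81 with MMS and 14.79 to 15.07 in control at 24 h, and 15.28 to 15.53 with MMS and 15.41 to 15.56 in control at 72 h. The groups were apart at 1 h, with MMS above control, and overlapped at 24 and 72 h. The part of these marker shifts in the values of the Imd pathway genes was not tested. In bulk RNA such as this, fewer cells of a kind and less RNA per cell cannot be told apart.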

How the data were processed

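RNA of Kc167 cells was measured on 36 arrays in 9 groups of 4. The deposited table gave, for every probe set, the authors' log2 expression in each array. It was made with RMA per the submitters' processing notes, with the RMA version not given in the sources used here. RMA equalises the distribution of values between arrays, so changes are relative to other genes. The table held 18952 probe sets with values of 2.67 to 14.74. The platform annotation named 13646 with 1 gene, 402 with several and 4721 with none, and 183 were Affymetrix controls. The probe set with the highest mean was kept for each gene, which left 11981 genes. Symbols were looked up by identifier in RefSeq's gene table (assembly Release 6 plus ISO1 MT), where 103 identifiers had no match. That table was used only for names and for which genes are neighbours.

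A mean per group was fitted with limma 3.58.1 in R 4.3.3 over all 36 arrays (27 residual and 5.37 prior degrees of freedom), tested two-sided and adjusted by Benjamini-Hochberg over all genes. Where the study's array service ran permutations, limma was used here. A call was an adjusted p under 0.05, with the count at 2-fold beside it. The exact permutation test of 4 against 4 arrays has 70 arrangements and cannot go below p = 0.0286. The script was checked on simulated data. Figures were drawn with matplotlib.

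The members and gene lists were chosen with earlier results of these data known, and the comparisons of MMS at 1 and 72 h with control at 0 h were added after the data were seen. Genes were named by a rule: all listed members, up to 6 genes per wider list and MMS comparison with the smallest adjusted p among those that passed, and the 3 genes most correlated with each of the 3 most variable members. Cell type marker lists are given by counts and summed levels, with only some of the genes this rule gives named. PGRP-LA, PGRP-LB and DptB were followed further after their values were seen. Alternatives were array centring, further quantile normalization, the mean of a gene's probe sets, a filter on dim genes, an intensity trend with a robust prior, array weights, the replicate number as a block, leaving out the 8 h arrays, only the groups compared, and each array left out. A block by replicate number at 24 h alone was added after the data were seen. Arrays have no sequencing depth, and their number limits the precision.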

Additional observations from a re-analysis of the deposited data

Results flagged for a closer look

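In 5 of 72 groups of 4 arrays (8 genes in 9 groups), 1 array stood apart from the other 3 by Dixon's test at the 95% level. Chance alone marks about 1 in 20 such groups. Replicate 2 of MMS at 72 h read 11.29 for PGRP-LE, against 11.09 to 11.12 in the other 3. Replicate 3 of control at 24 h read 5.57 for pirk, against 5.24 to 5.29. Replicate 4 of control at 1 h read 8.38 for imd, against 8.45 to 8.46. Replicate 1 of control at 1 h read 5.95 for dnr1, against 6.26 to 6.31, and replicate 4 of MMS at 8 h read 5.83 for dnr1, against 5.59 to 5.62.

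Of 16 tests of whether an MMS effect differed between successive times, 1 passed. The effect on PGRP-LF at 72 h minus that at 24 h was -1.65 (adjusted p = 2.06e-07, limma), and it passed under all 25 alternatives that could be run, with values of -1.93 to -1.56. It was below 0 in each of these, which was fixed in advance under settings that leave the difference itself unchanged.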

How the results depend on the processing

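Each result on the 8 genes was recomputed under 9 alternative settings, with each array left out in turn and, at 24 h, with 1 setting added after the data were seen. Leaving arrays out aside, 819 recomputed values kept their direction and side of the threshold, 11 crossed to an adjusted p under 0.05, 9 lost it and 9 changed sign, all of these last from differences that had not passed. Of these settings, only array centring, further quantile normalization and array weights could change a difference itself. Under the others the direction was fixed in advance, and only the adjusted p could change. With the replicate number as a block, the 8 genes kept their calls in every comparison, for example 0.60 with an adjusted p of 0.0391 for dnr1 at 72 h. Over all times the numbers were not taken as a pairing, because the deviations of arrays with the same number in the MMS and control groups of a time correlated at -0.44 to 0.53 over 16 pairs of arrays, of which 7 exceeded 0.1, and 6 of the 16 arrays correlated best with their own number. At 24 h, however, all 4 pairs exceeded 0.1 (0.36 to 0.53), against 1 of 4 at 1 h, 2 at 8 h and 0 at 72 h. With the replicate number as a block at 24 h alone, a setting chosen after seeing the data, the 8 genes kept their calls at 24 h, with adjusted p-values of 0.0121 for PGRP-LE, 0.000313 for pirk, 0.00015 for Rel and 0.0885 for PGRP-LF.

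Counts of the 8 genes that moved by more than 1.5 times, or to or from 0, were these. The number lower in control at 24 h against 0 h was 2 with arrays centred, and the number whose MMS effect was lower at 72 h than at 24 h was 2 after further quantile normalization. The number whose effect was higher at 72 h than at 24 h was 1 without the 8 h arrays and 1 with only the groups compared. The number lower with MMS at 8 h was 1 with array weights and 1 with only the groups compared. With only the groups compared, 0 were higher in control at 1 h and 0 lower in control at 8 h, against 0 h, and 0 were higher and 0 lower in MMS at 1 h against control at 0 h. That last number lower, which is Dredd (-0.31 ± 0.07, adjusted p = 0.0437, range 0.0259 to 0.776 over alternatives), was also 0 after further quantile normalization, with the intensity trend and robust prior, and without the 8 h arrays.

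With single arrays left out, the number lower in MMS at 1 h against control at 0 h ranged over 0 to 1 (0 without replicate 1, 2 or 4 of control at 0 h or replicate 1 or 2 of MMS at 1 h). The number lower in control at 24 h ranged over 1 to 2 (2 without replicate 3 of control at 0 h), and that lower in control at 8 h over 1 to 2 (2 without replicate 3 of control at 8 h). The number whose effect was lower at 24 h than at 8 h ranged over 0 to 1 (1 without replicate 3 of control or replicate 1 of MMS at 8 h). That lower at 72 h than at 24 h ranged over 1 to 2 (2 without replicate 3 of control at 24 h), and that higher over 0 to 1 (1 without replicate 2 of MMS at 72 h).

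The changes of sign concerned small differences. With arrays centred, key in control at 1 h was 0.024 and Dredd in control at 72 h -0.037 against 0 h. After further quantile normalization, PGRP-LE was 0.014 with MMS at 1 h, and imd in MMS at 1 h against control at 0 h was -0.020. With array weights, pirk was 0.016 with MMS at 1 h, dnr1 0.034 with MMS at 24 h, imd -0.0088 and Dredd -0.016 in control at 72 h against 0 h, and imd in MMS at 1 h against control at 0 h -0.12. With single arrays left out, the difference between MMS and control at 1 h ran over -0.035 to 0.0080 for PGRP-LE, -0.094 to 0.062 for pirk, -0.14 to 0.033 for PGRP-LF and -0.00046 to 0.17 for Rel, that at 24 h over -0.014 to 0.15 for imd and -0.26 to 0.057 for dnr1, and the effect on dnr1 at 24 h minus that at 8 h over -0.071 to 0.24. Against control at 0 h, control at 1 h ran over -0.051 to 0.0042 for key, -0.14 to 0.0052 for pirk and -0.027 to 0.14 for Rel, control at 8 h over -0.25 to 0.057 for imd and -0.022 to 0.11 for key, control at 24 h over -0.23 to 0.17 for dnr1, control at 72 h over -0.12 to 0.18 for imd, -0.034 to 0.031 for Dredd and -0.35 to 0.051 for dnr1, and MMS at 1 h over -0.19 to 0.11 for imd and -0.0073 to 0.032 for PGRP-LE.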
